A study of Mus musculus with 4 samples.

Results

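Integrins are transmembrane receptors, each made of an alpha and a beta subunit, that bind the extracellular matrix outside the cell and a plaque of cytoplasmic proteins inside it. In the plaque, talin and kindlin bind the beta subunit, vinculin and alpha-actinin tie the complex to actin filaments, and paxillin, p130Cas and Src relay signals. Actomyosin tension, which ROCK kinases promote, enlarges these adhesions, and the actin-regulated coactivator Mkl1 (MRTF-A) with the transcription factor SRF drives many genes of the actin cytoskeleton. The set described here holds 36 genes out of 18193 that the arrays name, chosen by gene symbol: 18 integrin subunits and 18 plaque proteins, each read by its probe set with the highest mean signal. The members were listed with earlier results of these data known.

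The RNA came from mouse DFAT cells, that is, adipocytes which shed their fat droplets in culture and took on a fibroblast shape. Of the 4 groups, 1 was treated with Y-27632, a small-molecule ROCK inhibitor, and 1 with the solvent DMSO, while 1 was transfected with an siRNA against Mkl1 and 1 with a control siRNA. All were grown in DMEM with 10% FBS; the labels give no mouse strain, dose, duration or confluence, and do not say whether a fat-forming mixture was added. With 1 array in each group there was no replicate against which to check any difference and no test could be run, so precision is limited by the array number. Values are log2 RMA signals; a difference of 1 is 2-fold, and members were counted from a 1.5-fold difference (0.58 on the log2 scale) against the array's own control. The difference between the control siRNA and DMSO arrays served as background. It sets siRNA transfection against solvent, so it is not a measure of array noise alone. In it 4.09% of all genes analysed were at least 1.5-fold lower and 3.42% higher. For Y-27632 minus DMSO these shares were 1.33% and 3.0%.

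All 18 plaque genes and 14 integrin genes reached, on at least 1 array, the median of all values (5.69), the filter used for counting. Itga4, Itgb4, Itgb6 and Itgb8 lay below it on every array, with signals from 2.75 to 5.26. Of the 14 integrins, Itga9 and Itgb2 passed on 3 arrays each, so part of their range lies near background. Over the 11600 genes past this filter the median difference was 0.00 in both treatment comparisons.

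As a check of the labels, Mrtfa, the present symbol of Mkl1, had a signal of 7.70 with Mkl1 siRNA and 8.55 with control siRNA, a difference of -0.85. Srf had a signal of 8.44 with Mkl1 siRNA and 8.93 with control siRNA. All 9 stromal markers measured passed the filter. Of them, 8 had lower signals with Mkl1 siRNA than with control siRNA (median -0.32), against 49.8% of all genes analysed. With Y-27632, 2 were below DMSO (median 0.06), against 49.4% of all genes. Pdgfra ran from 12.68 to 12.79 over the 4 arrays, but its other probe sets, past the filter, differed by -0.48 and -0.51 with Mkl1 siRNA. There Col3a1 differed by -0.32 and Col1a2 by -0.31, while their other probe sets, past the filter, ran from -1.51 to -0.82. Col1a1 differed by -1.05 and Cd34 by -1.82 with Mkl1 siRNA. Cd34 differed by 1.79 with Y-27632, and Dcn by -2.07 between the controls. Cd34 passed the filter on the Y-27632 array alone, at 6.36. Its signals were 4.57 with DMSO, 3.53 with Mkl1 siRNA and 5.36 with control siRNA, all near background. Of 6 smooth muscle or pericyte markers, 4 passed the filter, and the log2 of the list's summed signal was 13.37 with Y-27632, 13.95 with DMSO, 13.57 with Mkl1 siRNA and 14.10 with control siRNA. Of 6 endothelial markers 1 passed, Kdr at 5.58 to 5.79, and Pecam1 and Cdh5 did not. Of 5 epithelial markers 1 passed, Epcam at 9.20 to 9.98, with a difference of -0.55 with Mkl1 siRNA, and Cdh1 did not. Leukocyte markers are given with Itgb2. All 9 mature adipocyte markers were higher in both treatment comparisons, as were 3379 of the 11600 genes analysed. The log2 of the adipocyte markers' summed signal was 15.75 with Y-27632 and 14.61 with DMSO, and 15.86 with Mkl1 siRNA and 14.65 with control siRNA. For 18S ribosomal RNA, 3 control probe sets had a median difference of -0.48 in both treatment comparisons, against 0.15 between the controls, and for Actb the 3' probe set exceeded the 5' one in these differences by 0.26 (Y-27632) and 0.14 (Mkl1 siRNA), against -0.03 between the controls. The part of cell composition and RNA quality in the differences below was not tested, and in bulk RNA a smaller number of cells of a type and less RNA per cell cannot be told apart.

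SRF binds a motif called the CArG box, here 2 C, 6 letters that are each A or T, and 2 G, which reads as the same motif on both strands. It was searched for in RefSeq promoters of GRCm38.p6 (250 bases before to 50 after each start), of which 35 belonged to 28 of the 36 members. The full box was present in 3 member promoters, those of Vcl, Fermt2 and Itgb6, against 1.63% of all 32851 promoters. A CArG-like box, with 1 of the middle letters G or C and counted apart from the full box, was present in 4 member promoters, against 8.5% of all promoters. The stretches around the boxes of the 6 genes past the filter are shown because the siRNA targets the SRF coactivator, and that of Itgb6, below the filter on every array, is left out; each is read 5′ to 3′ on the gene's strand, with the box in capitals. They lie at chr14:20929148-20929205 on the plus strand (Vcl), chr14:45530235-45530294 on the minus strand (Fermt2), chr15:103366882-103366941 on the minus strand (Itga5), chr8:128685592-128685651 on the plus strand (Itgb1), chr7:19271855-19271910 on the minus strand (Vasp) and chr6:29432965-29433024 on the plus strand (Flnc).
Vcl: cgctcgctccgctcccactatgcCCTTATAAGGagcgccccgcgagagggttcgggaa
Fermt2: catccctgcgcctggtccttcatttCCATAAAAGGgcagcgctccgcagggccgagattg
Itga5: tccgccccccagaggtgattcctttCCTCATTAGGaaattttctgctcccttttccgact
Itgb1: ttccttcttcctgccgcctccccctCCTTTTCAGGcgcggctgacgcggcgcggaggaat
Vasp: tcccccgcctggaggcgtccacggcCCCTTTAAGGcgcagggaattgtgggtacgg
Flnc: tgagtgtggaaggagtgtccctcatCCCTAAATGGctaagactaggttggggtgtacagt
The first base of the box lay 227 bases before the start in Vcl, 204 in Fermt2, 163 in Flnc, 125 in Itga5, 37 in Itgb1 and 31 in Vasp. A match is a description of these letters, not a site shown to be bound.

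**Figure D1:**
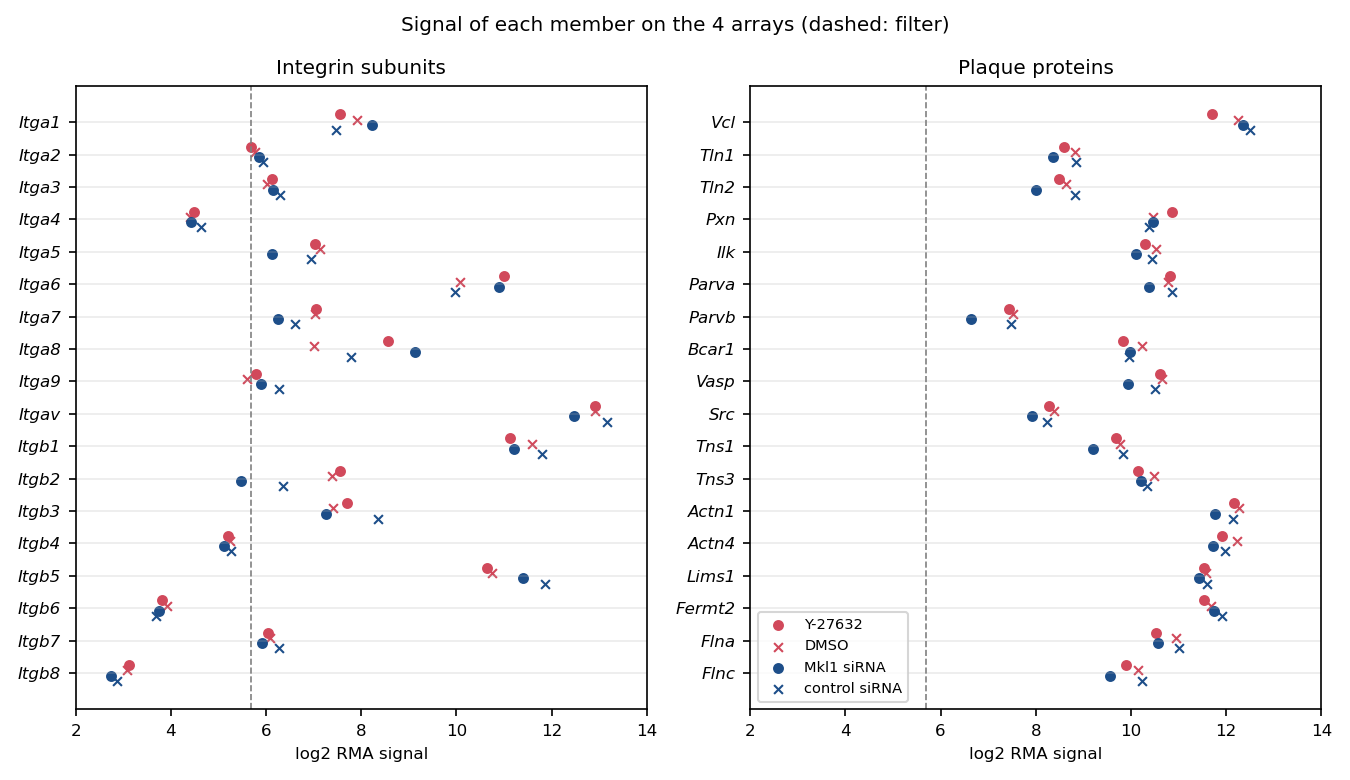
Log2 RMA signal (x axis) of the 18 integrin subunits (left) and 18 plaque proteins (right) on the Y-27632 (red circles), DMSO (red crosses), Mkl1 siRNA (blue circles) and control siRNA (blue crosses) arrays, with the filter at 5.69 as a dashed line; each point is 1 array. Both circles of Itga6 and Itga8 lie to the right of both crosses, and both circles of Itgb1 and Flna to the left; signals of different genes are not comparable with each other.

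The first comparison asked how adhesion genes differed after ROCK inhibition. With Y-27632, the laminin receptor subunit Itga6 and the nephronectin and fibronectin receptor subunit Itga8 were higher than with DMSO, the shared beta subunit Itgb1 and the linker Vcl were lower by less than 1.5-fold, and most plaque genes lay slightly below DMSO. Of the 14 integrins, 2 were at least 1.5-fold higher, against 3.0% of all genes analysed, and none was at least 1.5-fold lower, against 1.33%. The integrin median was 0.01, with 7 members above 0 and 7 below. Among the 18 plaque genes none was at least 1.5-fold higher or lower, but 16 were below DMSO, against 49.4% of all genes, and their median was -0.14.

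The second comparison asked the same of Mkl1 knockdown. With Mkl1 siRNA, Itga8, Itga6 and the collagen receptor subunit Itga1 were higher than with control siRNA, while Itgb3, Itgb2, Itga5, Itgav and Itgb1 were lower, as were the plaque genes Parvb, Tln2, Flnc and Tns1. Of the 14 integrins, 5 were at least 1.5-fold lower, against 5.91% of all genes analysed, and 3 at least 1.5-fold higher, against 5.42%. Among the 12 integrins past the filter on all 4 arrays, which leaves out Itgb2, 4 were lower. The integrin median was -0.37 with 11 members below 0. Of the 18 plaque genes, 4 were at least 1.5-fold lower and none was higher by as much. In all, 16 were below control siRNA, against 49.8% of all genes, with a median of -0.35 and a range from -0.83 to 0.10. Itgb1, at -0.60, lay just inside the 1.5-fold limit and Vasp, at -0.57, just outside it.

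Between the control arrays the integrins differed more than the plaque genes. Of the 14 integrins, 4 were at least 1.5-fold higher with control siRNA than with DMSO, against 3.42% of all genes, and 1 was lower, against 4.09%, with a range from -1.03 to 1.12. The 18 plaque genes ran from -0.28 to 0.25, 9 below 0 against 51.4% of all genes, with a median of -0.03. The plaque median between the controls was thus nearer 0 than in either treatment comparison, whereas several integrin values depend on which control is used.

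Against the other control array, 3 integrins were at least 1.5-fold lower with Y-27632 (Itgb1, Itgb3 and Itgb5; 3.25% of all genes) and 3 higher (Itga6, Itga8 and Itgb2; 5.70%). Mkl1 siRNA set against DMSO likewise gave 3 lower integrins (Itga5, Itga7 and Itgb2; 8.74% of all genes), 3 higher ones (Itga6, Itga8 and Itgb5; 7.40%) and 3 lower plaque genes (Tln2, Parvb and Vasp). These comparisons share arrays with the others and are given for their values only. From a 2-fold difference in the matched comparisons, Itga8 was the 1 member higher with Y-27632 (1.27% of all genes) and none was lower (0.224%). With Mkl1 siRNA, Itga8 was higher (1.79%) and Itgb3 lower (1.74%), and between the controls Itgb5 was higher (0.957%) and Itgb2 lower (1.09%).

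**Figure D2:**
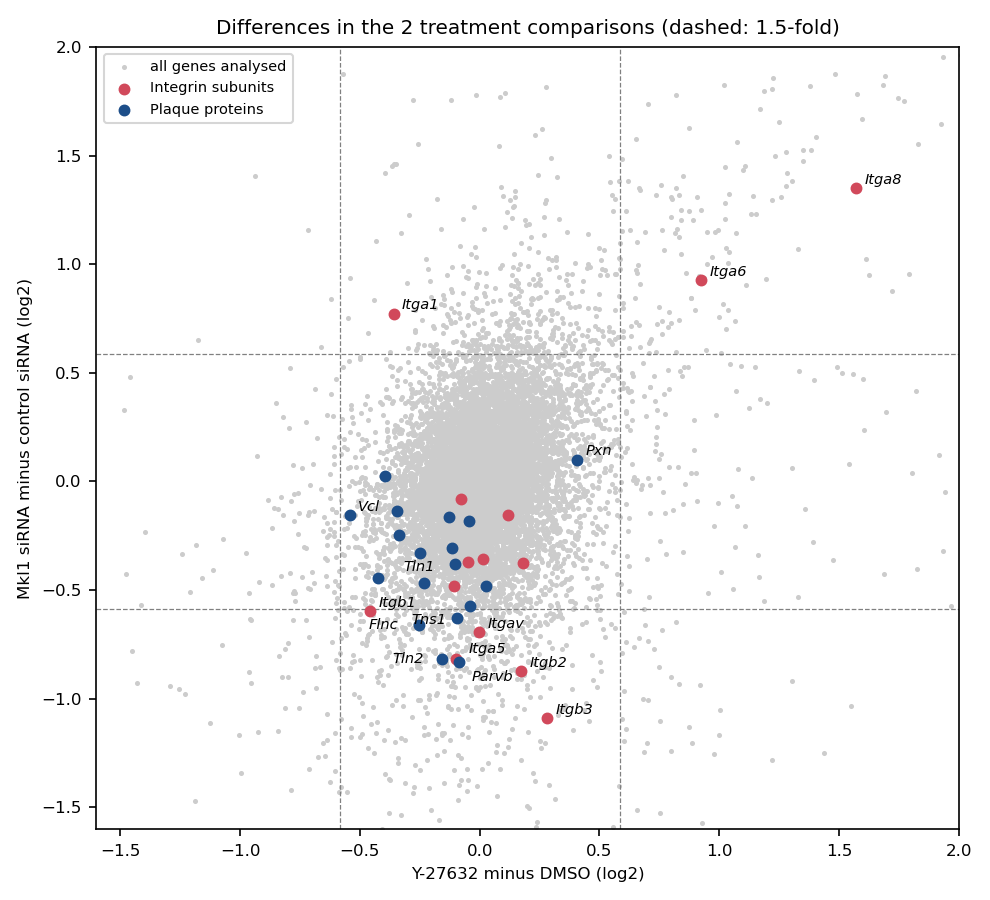
Log2 difference of Y-27632 minus DMSO (x axis) against Mkl1 siRNA minus control siRNA (y axis) for integrin subunits (red), plaque proteins (blue) and all genes analysed (grey; 92 genes beyond the axes are not shown), with dashed lines at 1.5-fold. Itga8 and Itga6 lie in the upper right, most plaque proteins in the lower left around the centre, and Itga1 and Itgb3 in opposite corners.

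Among the alpha subunits, Itga6 and Itga8 were higher in both comparisons and Itga1 in 1 of them. Itga6, which pairs with Itgb1 or Itgb4 to bind laminin, had signals of 11.00 with Y-27632 and 10.07 with DMSO, and of 10.90 with Mkl1 siRNA and 9.98 with control siRNA. Both treated arrays stood above both controls by a near-equal amount, with ratios of 1.90 in each comparison, and the controls differed by only -0.09. Its second probe set, past the filter, gave differences of 0.90 (Y-27632) and 0.71 (Mkl1 siRNA). On that probe set control siRNA differed from DMSO by -0.38, and Mkl1 siRNA exceeded DMSO by 0.33, short of 1.5-fold. The alternative beta partner Itgb4 was below the filter on every array. The other laminin receptor subunits did not show this: Itga3 differed by 0.12 and -0.15, and Itga7, an abundant subunit of muscle, by 0.01 and -0.36.

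Itga8, which pairs with Itgb1 and binds nephronectin and other proteins with an RGD motif, had signals of 8.57 with Y-27632 and 7.0 with DMSO, and of 9.13 with Mkl1 siRNA and 7.78 with control siRNA. Both treated arrays were above both controls, with ratios of 2.97 and 2.55, and control siRNA was itself above DMSO by 0.78. Set against the other control array, Y-27632 differed by 0.79 and Mkl1 siRNA by 2.13. Its second probe set, below the filter at 3.10 to 3.85, differed by 0.55 and 0.20. Itga6 and Itga8 were the only members at least 1.5-fold higher in both comparisons, which share no array; 1.53% of all genes were.

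Itga1, which pairs with Itgb1 to bind collagen, had signals of 7.55 with Y-27632 and 7.91 with DMSO, and of 8.24 with Mkl1 siRNA and 7.46 with control siRNA. It thus differed by -0.36 in the first comparison and 0.77 in the second, and the Mkl1 siRNA array was the highest of the 4. Against DMSO, Mkl1 siRNA was higher by 0.32, short of 1.5-fold. Of the other collagen-binding subunits, Itga2 ran between 5.69 and 5.94 over the arrays, close to the filter, and Itga10 was below it on every array.

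Besides Itga8, the receptors for RGD ligands draw on Itga5, Itgav, Itgb1, Itgb3 and Itgb5. Itga5, the alpha subunit of the fibronectin receptor, had signals of 7.04 with Y-27632 and 7.14 with DMSO, and of 6.12 with Mkl1 siRNA and 6.94 with control siRNA. Only the Mkl1 siRNA array stood apart, at 0.57 of its control, and differed from DMSO by -1.01. The probe sets disagreed on the size: the other 3 differed by -0.29, -0.09 and -0.09 with Mkl1 siRNA, and 2 of them passed the filter.

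Itgav, the alpha subunit shared by the vitronectin receptors, had signals of 12.92 with Y-27632 and 12.92 with DMSO, and of 12.47 with Mkl1 siRNA and 13.17 with control siRNA. Y-27632 thus differed by -0.00 and Mkl1 siRNA by -0.69, and the second probe set past the filter differed by -0.07 and -1.17. Against DMSO the Mkl1 siRNA difference was -0.45. Its partner Itgb3 had signals of 7.70 with Y-27632 and 7.42 with DMSO, and of 7.25 with Mkl1 siRNA and 8.34 with control siRNA. The control siRNA array was the highest of the 4, and the Mkl1 siRNA difference was -1.09 against control siRNA but -0.16 against DMSO. Its other probe set differed by -0.10 and -0.34.

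The alternative partner Itgb5 had signals of 10.65 with Y-27632 and 10.76 with DMSO, and of 11.39 with Mkl1 siRNA and 11.87 with control siRNA. Both siRNA arrays stood above both arrays without siRNA, and control siRNA exceeded DMSO by 1.12 on this probe set and by 1.08 to 1.18 on the other 3. The Mkl1 siRNA difference of -0.48, with other probe sets from -0.51 to -0.45, therefore lay within a larger control difference of opposite direction, and against DMSO it was 0.64.

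Itgb1, the beta subunit that pairs with most of the alpha subunits above, had signals of 11.14 with Y-27632 and 11.59 with DMSO, and of 11.21 with Mkl1 siRNA and 11.80 with control siRNA. Both treated arrays were below both controls, with ratios of 0.73 and 0.66. The other 2 probe sets past the filter differed by -0.55 and -0.29 with Y-27632 and by -0.51 and -0.32 with Mkl1 siRNA, whereas the 3 below the filter ran from -0.08 to -0.01 and from -0.32 to 0.12. Itga6, Itga8 and Itga1, which all pair with Itgb1, were thus higher with Mkl1 siRNA on arrays where Itgb1 was lower.

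The beta subunit of leukocyte integrins, Itgb2, was read by 1 probe set with signals of 7.56 with Y-27632 and 7.38 with DMSO, and of 5.47 with Mkl1 siRNA and 6.35 with control siRNA. Both siRNA arrays were below both arrays without siRNA, the Mkl1 siRNA array below the filter, and the difference was -0.87 against control siRNA and -1.91 against DMSO. Its alpha partners Itgal, Itgam and Itgax were below the filter on every array, as were the leukocyte markers Ptprc, Cd68 and Adgre1. Of the 7 leukocyte markers measured, 4 passed the filter, with a median difference of -0.01 in both treatment comparisons. These 4 ran from -0.84 (Lyz2) to 0.18 with Y-27632 and from -0.13 to 0.06 with Mkl1 siRNA. Between the controls they ran from -0.41 to 0.70 (Cd14). The log2 of the summed signal of all 7 was 8.76 with Y-27632, 8.86 with DMSO, 9.01 with Mkl1 siRNA and 9.07 with control siRNA.

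**Figure D3:**
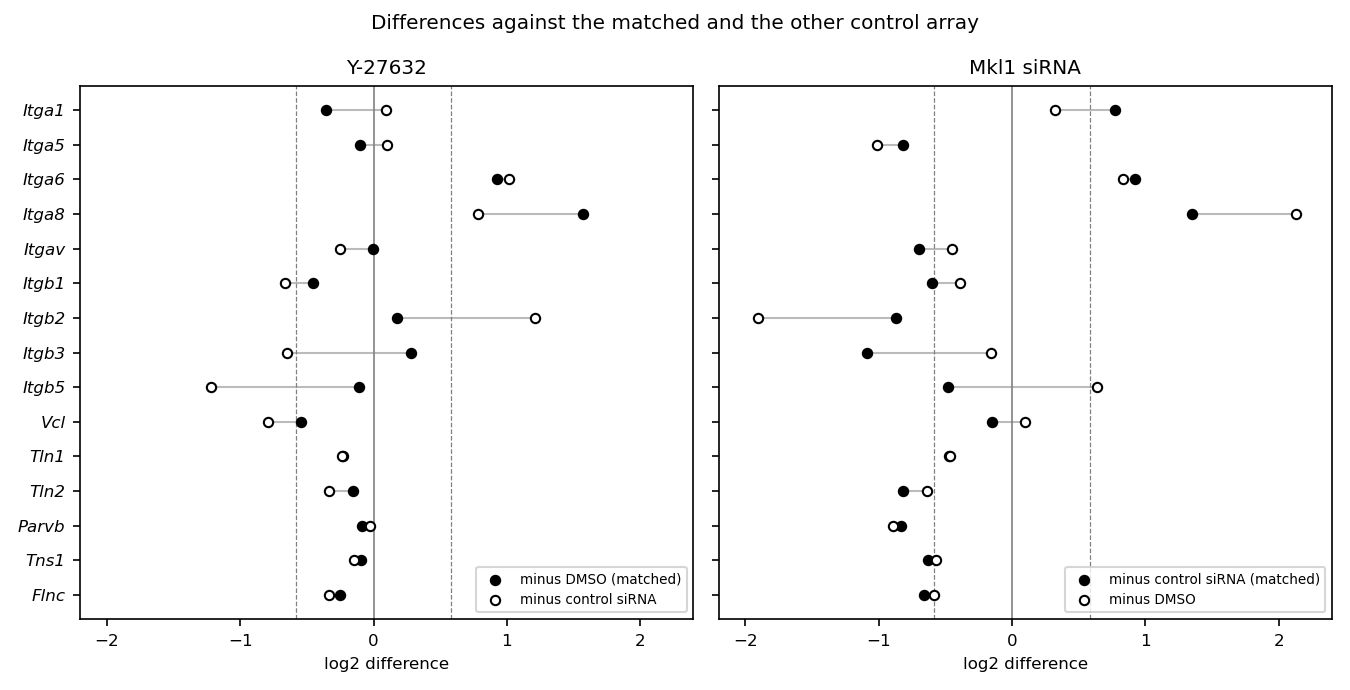
Log2 difference (x axis) of Y-27632 (left) and Mkl1 siRNA (right) against the matched control array (filled) and the other control array (open) for 15 members, with dashed lines at 1.5-fold. On the right, Itga5, Itga6, Itga8, Itgb2, Parvb and Tln2 lie beyond the dashed line whichever control is used. Itgb3, Itgb5 and Itgb2 move by 0.93 to 1.12, and of these Itgb2 alone stays beyond the same line.

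In the plaque, the proteins that bind integrin tails and actin came first. Vcl, vinculin, which is recruited to talin under tension, had signals of 11.71 with Y-27632 and 12.25 with DMSO, and of 12.35 with Mkl1 siRNA and 12.50 with control siRNA. The Y-27632 array was the lowest of the 4, at 0.69 of DMSO, while Mkl1 siRNA differed from control siRNA by -0.15 and from DMSO by 0.10. The second Vcl probe set, below the filter, gave -0.72 (Y-27632) and -0.63 (Mkl1 siRNA). On the probe set used, Vcl was the plaque gene furthest below DMSO with Y-27632 but not among the lower ones with Mkl1 siRNA. The mean of all Vcl probe sets gave -0.63 (Y-27632) and -0.39 (Mkl1 siRNA), so this reading depends on the probe set. The Vcl promoter holds the full box shown above, and whether the box plays a part in these differences was not tested.

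Tln1, the talin of most cells, had signals of 8.60 with Y-27632 and 8.83 with DMSO, and of 8.37 with Mkl1 siRNA and 8.84 with control siRNA. The controls were equal to within 0.01, so the differences of -0.23 and -0.47 were the same against either control to within 0.01. Its paralogue Tln2 had signals of 8.48 with Y-27632 and 8.64 with DMSO, and of 8.0 with Mkl1 siRNA and 8.82 with control siRNA. The Mkl1 siRNA array stood apart, at 0.57 of its control; the other 2 probe sets differed by -0.87 and -0.23 there, and by 0.04 and 0.07 with Y-27632. The kindlin Fermt2, which also holds a full box, gave differences of -0.13 (Y-27632) and -0.16 (Mkl1 siRNA), while control siRNA was above DMSO by 0.23.

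Integrin-linked kinase, the PINCH protein Lims1 and the parvins form a complex at integrin tails. On the probe sets used, Parvb alone of these 4 genes was at least 1.5-fold lower with Mkl1 siRNA than with control siRNA. Parvb had signals of 7.44 with Y-27632 and 7.53 with DMSO, and of 6.64 with Mkl1 siRNA and 7.47 with control siRNA. The Mkl1 siRNA array was alone in being low, by -0.83 against control siRNA and -0.89 against DMSO, on a probe set past the filter; the second probe set, below it, differed by -0.12. The paralogue Parva differed by -0.48, Ilk by -0.33 and Lims1 by -0.18, and with Y-27632 these 3 differed by 0.03, -0.25 and -0.05. The 5 Lims1 probe sets ran from -0.70 to 0.12 with Mkl1 siRNA. The second Parva probe set, past the filter, differed by -0.41 with Y-27632 and by -0.61 with Mkl1 siRNA, beyond 1.5-fold.

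The actin cross-linkers and tensins lay below their controls in both comparisons. Flnc, the filamin of muscle, had signals of 9.90 with Y-27632 and 10.15 with DMSO, and of 9.57 with Mkl1 siRNA and 10.23 with control siRNA. Both treated arrays were below both controls, and its other probe set differed by -0.32 and -0.76. Flna, the widely expressed filamin, was lower by a near-equal amount in both, -0.43 and -0.44, on its 1 probe set. Tns1, a tensin that links beta tails to actin, had signals of 9.68 with Y-27632 and 9.78 with DMSO, and of 9.20 with Mkl1 siRNA and 9.83 with control siRNA. Only the Mkl1 siRNA array was clearly low, and the 3 probe sets ran from -0.70 to -0.54. Tns3 differed by -0.35 and -0.14, Actn1 by -0.10 and -0.38, and Actn4 by -0.34 and -0.25. Vasp, which promotes actin filament elongation, differed by -0.04 with Y-27632 and -0.57 with Mkl1 siRNA.

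The signalling members differed least in a common direction. Src, the tyrosine kinase, differed by -0.12 with Y-27632 and -0.31 with Mkl1 siRNA. Bcar1, the Src substrate p130Cas, differed by -0.40 and 0.02, with its other probe set at -0.38 and -0.11. Pxn, paxillin, was the plaque gene furthest above its controls, at 0.41 and 0.10, but its 3 probe sets disagreed, from -0.06 to 0.41 and from -0.03 to 0.35.

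Read over all 4 arrays, 10 of the 18 plaque genes had both treated arrays below both control arrays, against 15.6% of all genes analysed, and 1, Pxn, had both above, against 17.2%. The 10 were Tln1, Tln2, Ilk, Parvb, Tns1, Tns3, Actn4, Lims1, Flna and Flnc. Among the 14 integrins, Itgav, Itgb1 and Itgb7 had both treated arrays below both controls, and Itga6 and Itga8 had both above. In 15 plaque genes and 6 integrins both treatment differences were below 0, against 28.4% of all genes. The Mkl1 siRNA array was the lowest of the 4 for 12 plaque genes (66.7%) and 6 integrins, against 31.4% of all genes. Of the 32 members past the filter, 4 were at least 1.5-fold lower with Mkl1 siRNA than with either control, against 4.01% of all genes. These were Itga5, Itgb2, Tln2 and Parvb. They were 4 of the 9 members at least 1.5-fold lower than control siRNA, against 465 of 686 among all genes analysed. Members lower than control siRNA were thus less often also lower than DMSO than genes in general. For Itgb2 the Mkl1 siRNA signal was itself below the filter.

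**Figure D4:**
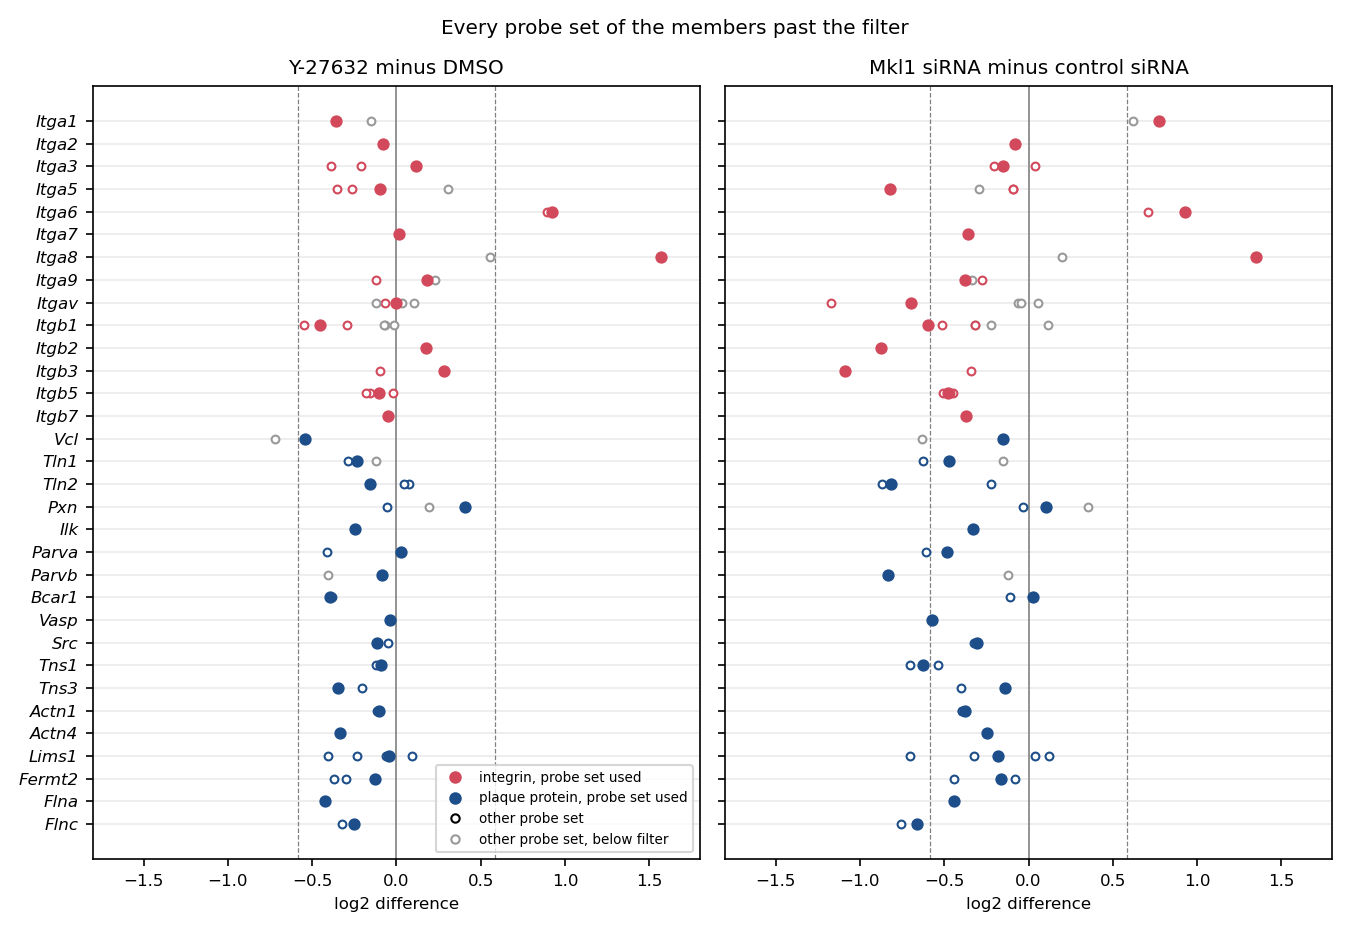
Log2 difference (x axis) of every probe set of the 32 members past the filter, for Y-27632 minus DMSO (left) and Mkl1 siRNA minus control siRNA (right); filled points are the probe sets used and grey outlines mark those below the filter. With Mkl1 siRNA 33 of the 37 plaque probe sets and 22 of the 27 integrin probe sets past the filter lie below 0. The share over all probe sets was not computed. The probe sets of Itgav run from -1.17 to 0.06 there.

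Taking every probe set past the filter, 32 of 37 plaque probe sets gave less signal on the Y-27632 array than on the DMSO array (median difference -0.13). On the Mkl1 siRNA array 33 of 37 gave less than on the control siRNA array (median -0.40). Of the 27 integrin probe sets, 19 and 22 were below. The share over all probe sets was not computed, and over all genes analysed, with 1 probe set each, it was 49.4% and 49.8%. Probe sets of the same gene read the same arrays again and are not replicates. With probe sets below the filter included, 14 plaque genes had several probe sets. All of a gene's probe sets pointed the same way for 10 of them with Y-27632 and 11 with Mkl1 siRNA. For the 10 integrins with several, this held for 5 and 7.

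A wider list of 48 adhesion plaque genes gave 38 past the filter. With Y-27632, 30 of them were below DMSO (49.4% of all genes), with a median of -0.13, and 2 were at least 1.5-fold lower (1.33% of all genes): Lims2, a second PINCH protein, at -0.60 and the PDZ-LIM protein Pdlim1 at -0.61. With Mkl1 siRNA 29 were below control siRNA (49.8% of all genes), with a median of -0.15, and 6 were at least 1.5-fold lower (5.91% of all genes). Fblim1 (migfilin), which binds filamin and kindlin, was furthest, with signals of 9.25 with Mkl1 siRNA and 10.49 with control siRNA, a difference of -1.25 that its second probe set gave as -1.26. The actin-binding Nexn (nexilin) differed by -0.83, the LIM protein Csrp1 by -0.80, the tensin Tns2 by -0.67, Lims2 by -0.63 and the vinculin-binding Sorbs3 (vinexin) by -0.59. None of the 38 was at least 1.5-fold higher in either comparison, against 3.0% of all genes with Y-27632 and 5.42% with Mkl1 siRNA. Zyx, zyxin, differed by -0.27 with Y-27632 and -0.30 with Mkl1 siRNA. These counts rest on the probe set used for each gene. For Tes that probe set gave -0.54 and -0.58, short of 1.5-fold, and the second, past the filter, -0.78 and -0.81. Sorbs2 was not counted, as its probe set with the highest mean was below the filter. Another of its probe sets, past the filter with DMSO at 6.68, differed by -1.90 with Y-27632 and by -2.88 between the controls.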

How the data were processed

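Total RNA of the 4 DFAT groups was read on single-colour Affymetrix mouse arrays, 1 per group. The authors deposited log2 values, 1 for each probe set, and the submitters' processing notes name RMA, a method of background correction, quantile normalisation and probe summary. Neither its version nor the chip definition is given in the sources used here. RMA compresses weak signals, so differences near background may be too small. Their range (2.02 to 14.6) fits a log2 scale.

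Of 45101 probe sets, 34958 had 1 gene symbol in the platform annotation, 932 several and 9211 none; only the first were named, 34754 through RefSeq gene numbers (GRCm38.p6, names only). No gene value used the 64 control probe sets. Per gene, the probe set with the highest mean was used. Genes reaching 5.69 on 1 array were counted. With 1 array per group no test was possible. Calculations used Python 3.11.15 with pandas 2.3.3 and were tested on simulated data. Alternatives changed the probe set rule, filter, scaling (median, loess with span 0.3), threshold and control array.

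The members and lists were chosen with earlier results of these data known. Members were given on all arrays if at least 1.5-fold from control, or if Vcl, Itgb1, Itga5, Itgav or Tln1. Itgb5 and other members given beyond ranges, and Zyx, Tes, Sorbs2, Ccn1 and Thbs1, were chosen after their values were seen.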

Additional observations from a re-analysis of the deposited data

How the results depend on the processing

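The depth of an array is its signal over background, and the 4 integrins below the filter carry no usable difference. The mean of all probe sets left 2 integrins at least 1.5-fold lower with Mkl1 siRNA in place of 5, and gave 1 plaque gene, Vcl, lower with Y-27632. When probe sets marked as matching more than 1 transcript were dropped, the plaque median with Mkl1 siRNA was -0.46, and Itga5 stood at -0.09. A filter at the 75th percentile kept 7 integrins, with a median of -0.48 and 3 lower with Mkl1 siRNA, and 0 lower between the controls. At 2-fold, 1 integrin was higher with Y-27632, 1 higher and 1 lower with Mkl1 siRNA, 1 higher between the controls, and 0 plaque genes were lower with Mkl1 siRNA. Against the other control array the integrin medians became -0.20 (Y-27632) and -0.037 (Mkl1 siRNA), and 3 integrins were lower in each, and 1 plaque gene, Vcl, was lower with Y-27632. For the 18 integrins and 18 plaque genes, no filter and both scalings moved no median by over 0.1 and no count by over 1.5 times; the alternatives were not run for the other lists. No difference of 1.5-fold or more of a named member turned its sign in these alternatives. No replicate could be left out with 1 array in each group. No paired analysis was possible because no group had replicates. For counts that changed with the control array or probe set rule the cause was not tested.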

Other observations

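The matrix ligands of these receptors, in lists of laminin chains and of ligands of RGD-binding integrins, did not move as a block. Of 6 laminin chains past the filter, 3 were at least 1.5-fold higher with Y-27632 than with DMSO (3.0% of all genes) and 3 at least 1.5-fold lower with Mkl1 siRNA than with control siRNA (5.91% of all genes). Lama2, the alpha chain of muscle laminin, had signals of 9.79 with Y-27632 and 8.87 with DMSO, and of 7.58 with Mkl1 siRNA and 8.52 with control siRNA. Lamc1, the gamma chain shared by most laminins, had signals of 10.73 with Y-27632 and 10.12 with DMSO, and of 8.93 with Mkl1 siRNA and 10.08 with control siRNA. Both chains were thus highest with Y-27632 and lowest with Mkl1 siRNA, although the laminin receptor subunit Itga6 was higher in both comparisons. The second Lamc1 probe set differed by 0.13 and -0.57. Lama4 differed by 0.62 and 0.26, and Lamb2 by -0.07 and -0.66.

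Of the ligands of RGD-binding integrins, 9 passed the filter, and their counts rest on the probe set used for each. Ccn2 was the only one of the 9 at least 1.5-fold lower with Y-27632, at -1.43 (1.33% of all genes). Ccn1 differed by -0.35, but its other probe sets, all past the filter, differed by -0.42, -0.88 and -0.95. With Mkl1 siRNA, 2 of the 9 ligands were lower (5.91% of all genes), Tnc (tenascin-C) at -1.37 and Ccn2 at -0.93. Another 2 were higher (5.42%), Npnt, the nephronectin ligand of Itga8, by 1.23 and Mfge8 by 0.70. Thbs1 differed by -0.37, but its second probe set, past the filter, by -0.62. Npnt had signals of 4.79 with Y-27632 and 5.08 with DMSO, and of 5.85 with Mkl1 siRNA and 4.62 with control siRNA, so only the Mkl1 siRNA array passed the filter, and its 5 probe sets ran from -0.15 to 1.23. Itgbl1, a secreted protein resembling the stalk of beta subunits, had signals of 9.78 with Y-27632 and 10.37 with DMSO, and of 8.44 with Mkl1 siRNA and 9.87 with control siRNA. Its differences were -0.59 and -1.43, on 1 probe set.

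Among 11 other matrix receptors, the syndecan Sdc1 was higher by 0.68 with Y-27632 and 0.54 with Mkl1 siRNA. The hyaluronan receptor Cd44 differed by -0.58 and -0.72 and the tetraspanin Cd9, which associates with integrins, by 0.13 and -0.71. For Cd9 the control siRNA array was above DMSO by 0.80, and Mkl1 siRNA was above DMSO by 0.09.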
